A study of Mus musculus with 14 samples.

Results

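The Th2 cytokine genes described here are 10 mouse genes, Il4, Il5, Il13, Il9, Il10, Il24, Il3, Csf2, Il6 and Areg, taken as a list by symbol from the 22598 genes of each deposited count table. All 10 had a row in the tables, and 7 of them had enough reads to enter the test that was run on 11591 genes. Il13, Il3 and Il9 did not. RNA sequencing was done on CD4+ TCRb+ T cells sorted from the spleens of C57BL/6J mice, activated and polarised in culture towards the Th2 type. The 4 groups were Ago134 knockout at day 14 (KO, n = 3), wild type at day 14 (WT, n = 3), KO at day 7 (n = 4) and WT at day 7 (n = 4). The knockout label stands for the genes of 3 microRNA carriers, the Argonaute proteins AGO1, AGO3 and AGO4, and the series text calls the WT mice littermates. All groups were polarised to the same type, and the series text gives the later time also as 15 days. Nothing in the labels says that the libraries within a group are separate mice or cultures. The p-values then cover no more than the spread among these samples, and that spread may be technical.

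The libraries held 23326248 to 35803197 counts, so 1 CPM (the usual count scaled to library size) stood for 22.6 to 35.9 reads. Levels below are CPM on totals scaled by TMM, and read numbers are as deposited. Ago1 had 0 to 2 reads in the 7 KO libraries, against 67 to 141 reads in the 7 WT libraries. Ago3 stood at 1.21 to 2.16 CPM in KO and 2.04 to 4.43 CPM in WT, and Ago4 at 2.38 to 4.76 CPM in KO and 0.358 to 2.81 CPM in WT. Ago2, which the knockout label does not name, was far more abundant. Its level was 70.1 to 90.4 CPM in KO and 110.7 to 126.2 CPM in WT at day 14. At day 7 it was 78.2 to 106.4 CPM in KO and 121.3 to 133.5 CPM in WT. The sources used here do not give which exons the Ago3 and Ago4 alleles lack, and the counts of those 2 genes therefore do not check the label. All 12 markers of CD4 T cells had reads, with Cd4 at 145 to 457 CPM over all libraries, while Cd8a stood at 0 to 0.302 CPM. Cd8b1, the other CD8 chain gene, stood at 11.4 to 20.3 CPM in KO and 6.32 to 7.92 CPM in WT at day 14, and at 10.4 to 20.9 CPM in KO and 6.61 to 10.1 CPM in WT at day 7. It was not called between KO and WT (log2 fold change 0.98 at day 14, adjusted p = 0.112, and 0.90 at day 7, adjusted p = 0.154). Its part in the cytokine values was not tested. Of 15 mast cell and basophil markers, 6 had 0 reads in every library (Ms4a2, Mcpt1, Mcpt2, Mcpt4, Mcpt8 and Prss34). One library stood apart: WT day 14 library 3 was the highest of its group for 9 of the 10 cytokine genes, and without it the number of genes called between KO and WT at day 14 moved to 2640, against 165 with it. The cytokine gene fold changes that it moved most are also given without it.

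Helper T cells of the Th2 type direct responses to worms and allergens through the cytokines they secrete. IL-4 drives further Th2 differentiation and antibody class switching to IgE, IL-5 makes eosinophils grow and survive, and IL-13 acts on epithelium and smooth muscle. The genes for these 3 cytokines lie side by side on mouse chromosome 11 and are opened together by the factor GATA3, while NFAT proteins switch them on when the T cell receptor is engaged. MicroRNAs carried by Argonaute proteins and proteins that bind AU-rich elements shorten the life of many cytokine mRNAs.

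Promoters are shown first, because 5 of these genes (Il4, Il13, Il5, Csf2 and Il3) share one stretch of chromosome 11 and yet differed widely in level. Those of the first 4 are printed. RefSeq (GRCm38.p6) gave a promoter for 8 of the 10 genes, covering 250 bases before to 50 bases after the start of transcription. Capitals mark every match, on either strand, to GGAAA, the core letters that NFAT proteins read, and to AGATA, core letters that GATA proteins read.
Il4 promoter (chr11:53618616-53618915, - strand): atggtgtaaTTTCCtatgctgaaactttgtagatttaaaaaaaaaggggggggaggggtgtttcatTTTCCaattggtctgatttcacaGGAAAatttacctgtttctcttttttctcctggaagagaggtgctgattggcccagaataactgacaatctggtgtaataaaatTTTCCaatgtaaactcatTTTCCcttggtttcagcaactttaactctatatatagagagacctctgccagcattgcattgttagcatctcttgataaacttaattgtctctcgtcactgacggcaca
Il13 promoter (chr11:53634653-53634952, - strand): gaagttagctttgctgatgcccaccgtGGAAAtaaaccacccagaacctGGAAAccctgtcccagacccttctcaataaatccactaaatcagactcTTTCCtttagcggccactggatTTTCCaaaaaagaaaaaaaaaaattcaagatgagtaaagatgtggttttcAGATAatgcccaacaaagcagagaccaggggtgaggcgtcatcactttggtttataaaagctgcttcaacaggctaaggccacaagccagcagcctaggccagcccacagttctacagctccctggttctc
Il5 promoter (chr11:53720544-53720843, + strand): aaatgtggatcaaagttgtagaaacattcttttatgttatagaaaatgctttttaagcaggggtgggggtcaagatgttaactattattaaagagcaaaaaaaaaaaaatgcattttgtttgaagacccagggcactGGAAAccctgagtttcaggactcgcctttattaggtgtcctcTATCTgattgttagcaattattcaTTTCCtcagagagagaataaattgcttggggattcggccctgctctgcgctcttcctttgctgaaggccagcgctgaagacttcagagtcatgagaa
Csf2 promoter (chr11:54249850-54250149, - strand): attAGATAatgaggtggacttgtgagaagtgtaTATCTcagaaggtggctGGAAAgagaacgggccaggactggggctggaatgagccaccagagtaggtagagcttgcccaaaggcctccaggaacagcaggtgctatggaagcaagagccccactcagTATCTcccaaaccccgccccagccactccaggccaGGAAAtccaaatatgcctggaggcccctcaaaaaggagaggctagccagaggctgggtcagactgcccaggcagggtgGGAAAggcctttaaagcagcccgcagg
The Il4 promoter held 5 matches to GGAAA and 0 to AGATA. There were 4 and 1 in the Il13 promoter, 2 and 1 in the Il5 promoter and 3 and 3 in the Csf2 promoter. The Csf2 window follows the RefSeq start and lies wholly upstream of Csf2 as GENCODE vM21 places it (chr11:54247271-54249667). Its matches are therefore not those around the GENCODE start. Of all 32851 promoters of this length, 61.3% held at least 1 GGAAA and 29.6% at least 1 AGATA on either strand, so a match by itself is common. The Il3 promoter, which is not printed, held 1 and 1. A second Il4 entry (chr11:53617289-53617588, - strand) held 1 and 0. A match describes the letters only.

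The 3′ ends of the mRNAs were read because the knockout label names microRNA carriers, though mRNA of the carrier gene Ago2 remained in KO. miR-24-3p is known to repress Il4 and let-7 to repress Il13 in mouse T cells. Capitals mark the seed, bases 2 to 8, in the mature microRNAs (RefSeq), and the letters that pair with it in the 3′ UTRs of the mRNAs (GENCODE vM21).
mmu-miR-24-3p: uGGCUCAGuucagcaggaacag
Il4 3′ UTR, first 20 bases: taCTGAGCCaccatgcttta
mmu-let-7a-5p: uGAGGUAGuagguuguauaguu
Il13 3′ UTR, bases 438 to 466: acataactctgCTACCTCactgtagcctc
The 3′ UTRs of all 10 genes were searched for 4 seeds, those of miR-24-3p, let-7a-5p, miR-27a-3p and miR-155-5p, and the 2 matches shown were the ones found. Matches to the miR-24-3p seed occurred in 16.2% and matches to the let-7 seed in 9.02% of the 20884 mouse 3′ UTRs read. The AU-rich pentamer ATTTA occurred in the 3′ UTRs of all 10 genes, from 1 match in Il3 to 9 in Csf2 and 10 in Il6, and in 65.3% of all 3′ UTRs. Per kilobase, the 10 genes held 8.99 matches and all 3′ UTRs 1.93. The longer element TTATTTATT was present 4 times in Csf2 and once each in Il13 and Areg, and 7.67% of all 3′ UTRs held it.

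The first question was how these genes changed between day 7 and day 14 of culture. In both genotypes the cytokine genes were scarce at day 7 and more abundant at day 14. In KO cells 6 of the 7 tested genes rose, where 10.5% of all tested genes rose, and in WT cells 7 of 7 rose, where 13.2% of all tested genes did. These calls are from edgeR's quasi-likelihood test with Benjamini-Hochberg adjustment over all tested genes, at an adjusted p under 0.05. Only Il4 and Il10 had enough reads at day 7 to pass the count filter there. The other 5 passed through their day 14 libraries, so the number called describes these genes and is no independent support. Counting all 10 genes, day 14 libraries lay above every day 7 library for 7 genes in KO (13.6% of all tested genes) and for 9 genes in WT (17.2%). The exceptions in KO were Il13, Il6 and Il9, and the exception in WT was Il9.

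**Figure D1:**
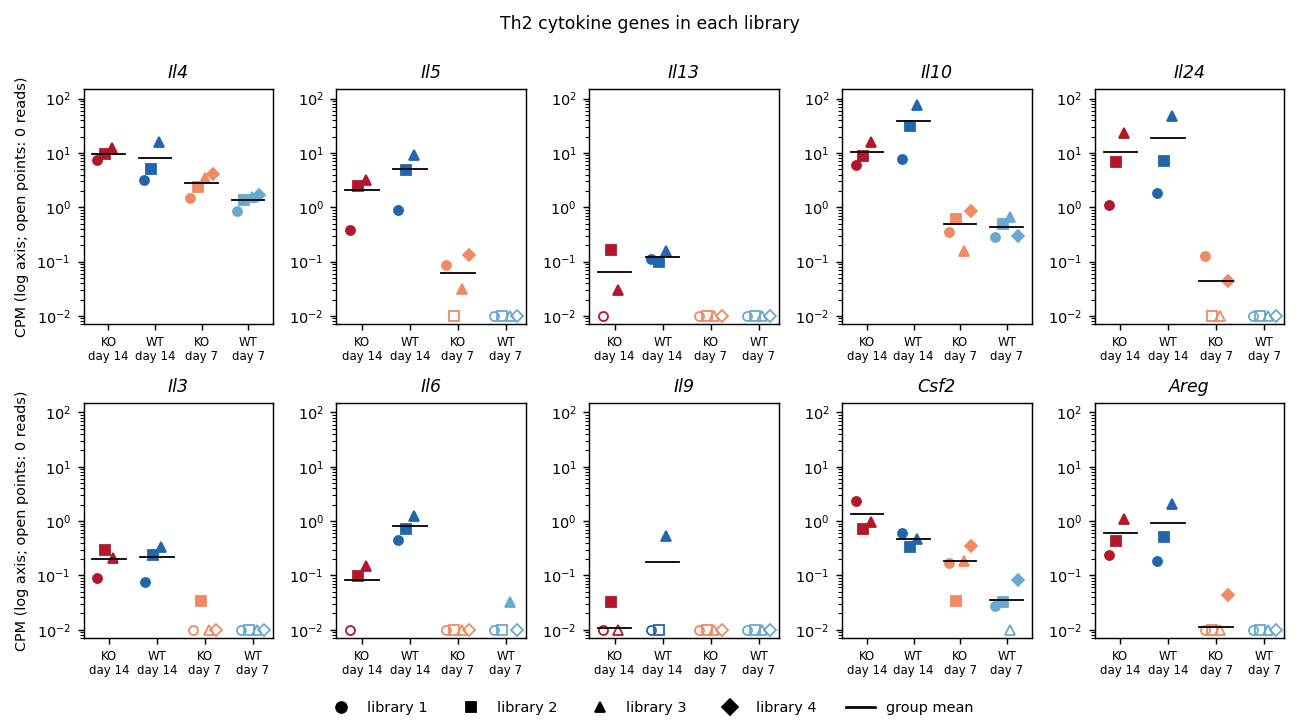
CPM of the 10 genes in each library on a log axis, with KO and WT at day 14 left of KO and WT at day 7. Each point is 1 library, its shape gives the library number, open points at the bottom are libraries with 0 reads, and bars are group means of at least 0.01 CPM. Il4 and Il10 have reads in all 14 libraries, most others are at or near 0 at day 7, and WT day 14 library 3 tops its group in every panel except Csf2.

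Il4, the defining Th2 cytokine, was with at least 31 reads in every library. It stood at 7.30, 9.43 and 12.4 CPM in KO at day 14, against 1.46, 2.37, 3.48 and 4.03 CPM in KO at day 7. In WT it stood at 3.12, 5.01 and 15.9 CPM at day 14, against 0.863, 1.33, 1.56 and 1.67 CPM at day 7. Every day 14 library lay above every day 7 library of its genotype. The log2 fold change was 1.77 ± 0.50 in KO (SE, adjusted p = 0.0254) and 2.56 ± 0.51 in WT (adjusted p = 0.00268), and 1.58 in WT without WT day 14 library 3 (adjusted p = 0.0104). The KO call was lost when any of 4 single KO libraries was left out, with log2 fold changes of 1.56 to 1.96 and adjusted p-values of 0.00309 to 0.105 over all fits that left out 1 library.

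Il5, which encodes the growth factor of eosinophils, was near 0 at day 7. KO day 14 libraries held 13, 76 and 107 reads, against 2, 0, 1 and 3 reads in KO at day 7. WT day 14 libraries held 24, 147 and 303 reads, against 0 reads in all 4 WT day 7 libraries. Its level at day 14 was thus 0.384 to 3.23 CPM in KO and 0.892 to 9.37 CPM in WT. It rose in KO (log2 fold change 5.05 ± 1.06, adjusted p = 0.00804) and in WT (adjusted p = 0.000607), where summed reads were at least 216-fold higher at day 14 against a floor of 3 counts over the WT day 7 group. WT day 14 library 3 held 303 of the 474 reads, and without it the bound was 122-fold.

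Il13 stood far below its neighbours Il4 and Il5. It had 0, 5 and 1 reads in KO at day 14 and 3, 3 and 5 reads in WT at day 14, and 0 reads in all 8 day 7 libraries. For 0 reads over 4 libraries the exact 95% interval reached up to 0.0344 CPM in KO and 0.0303 CPM in WT at day 7, for counting error only. Il9, a mast cell growth factor, had reads in 2 libraries: 1 read in KO day 14 library 2 and 17 reads in WT day 14 library 3. Without that WT library its count in WT was 0. By exact 2-sided permutation tests over libraries, the day difference of Il13 had p = 0.143 in KO and 0.0286 in WT, the smallest p that 3 against 4 libraries can give, and an adjusted p of 0.429 and 0.114 over the 12 such tests. The day difference of Il9 had p = 0.429 in each genotype by the same exact test. Between KO and WT at day 14, the ratio of summed Il13 reads was 0.50 with an exact 95% counting interval of 0.152 to 1.47, so a difference was not detectable at this depth. The ratio for Il9, 1 read against 17 (0.0539, interval 0.00129 to 0.344), rests on WT library 3 alone. Over libraries the exact permutation p was 0.40 for Il13 and 1.00 for Il9, where 3 against 3 cannot go below 0.10.

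Il10, which encodes a cytokine that dampens immune responses and is made by Th2 cells among others, rose in both genotypes. KO libraries held 5.97, 8.73 and 16.0 CPM at day 14, against 0.344, 0.608, 0.157 and 0.841 CPM at day 7. WT libraries held 7.70, 31.7 and 77.7 CPM at day 14, against 0.278, 0.488, 0.671 and 0.293 CPM at day 7. Neither genotype had any overlap between days. The log2 fold change was 4.40 ± 0.71 in KO (adjusted p = 0.000901) and 6.48 ± 0.75 in WT (adjusted p = 5.63e-05), and 5.49 in WT without WT day 14 library 3 (adjusted p = 0.000104).

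Il24, a relative of IL-10 in sequence and a neighbour on chromosome 1, had 38, 203 and 767 reads in KO at day 14, against 3, 0, 0 and 1 reads in KO at day 7. It had 50, 217 and 1539 reads in WT at day 14, against 0 reads in the 4 WT libraries at day 7. In both genotypes library 3 was far above the other 2 at day 14, by 20.6 times over the lowest in KO and 25.6 times in WT. Il24 rose in KO (log2 fold change 7.93 ± 1.54, adjusted p = 0.00514) and in WT (adjusted p = 0.00141, at least 823-fold in summed reads). Library 3 held 1539 of the 1806 WT reads, and without it the bound was 191-fold. In KO the log2 fold change was 6.52 without KO day 14 library 3 and 9.31 without KO day 7 library 1.

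Il3 and Csf2 encode growth factors of myeloid cells that share a receptor chain, and their genes are 15.6 kb apart. Csf2 had 2.33, 0.725 and 0.965 CPM in KO at day 14, against 0.172, 0.0338, 0.188 and 0.354 CPM in KO at day 7. In WT it had 0.595, 0.334 and 0.464 CPM at day 14, against 0.0278, 0.0325, 0 and 0.0836 CPM at day 7. It rose in KO (log2 fold change 2.85 ± 0.64, adjusted p = 0.00749) and in WT (3.63 ± 0.80, adjusted p = 0.00510), with no overlap between days. The KO value was 2.18 without KO day 14 library 1, and the WT value 4.25 without WT day 7 library 4. Il3 had 3, 9 and 7 reads in KO at day 14 against 0, 1, 0 and 0 at day 7, and 2, 7 and 11 reads in WT at day 14 against 0 reads in WT at day 7. Its libraries did not overlap between days, and the exact permutation test gave p = 0.0286 in each genotype, the smallest it can give (adjusted p = 0.114). Without the count filter edgeR called Il3 in both genotypes, with adjusted p = 0.0470 in KO and 0.00935 in WT.

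Il6, a cytokine made mostly by myeloid and stromal cells, had 0, 3 and 5 reads in KO at day 14 and 0 reads in all KO libraries at day 7. WT libraries held 12, 21 and 41 reads at day 14, against 0, 0, 1 and 0 at day 7. It rose in WT (log2 fold change 6.03 ± 1.04, adjusted p = 0.00179, and 7.58 without WT day 7 library 3, which held the 1 read). In KO the log2 fold change was 4.37 ± 1.56 with an adjusted p of 0.0861, and it was called only when KO day 14 library 1, which had no Il6 read, was left out (adjusted p = 0.0256). With 0 reads in KO at day 7, the fitted KO value depends on the model's prior count. Summed Il6 reads in KO were at least 2.94-fold higher at day 14. Areg encodes amphiregulin, a ligand of the EGF receptor that acts in tissue repair. It had 8, 13 and 37 reads in KO at day 14 against 0, 0, 0 and 1 at day 7, and 5, 15 and 66 reads in WT at day 14 against 0 in WT at day 7. Areg rose in KO (log2 fold change 5.45 ± 1.27, adjusted p = 0.0137) and in WT (adjusted p = 0.00288, at least 39.2-fold in summed reads). WT day 14 library 3 held 66 of the 86 reads, and without it the bound was 14.3-fold. In KO the log2 fold change was 7.16 without KO day 7 library 4, which held the 1 read. Its KO call was lost without KO day 14 library 3 (log2 fold change 4.61, adjusted p = 0.0641).

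The median log2 fold change of the 7 tested genes was 4.40 in KO and 6.48 in WT, against 0.02 and 0.00 over all tested genes. With genes that had no day 7 read set at their lower bound, the medians were 4.40 and 6.03. Since 5 of the 7 entered the test through their day 14 libraries, these medians describe the genes and support nothing. The libraries were sequenced in 2 sets of lanes, as read from the lane and serial numbers of the deposited tables, and all KO day 14 libraries lay in one set and all KO day 7 libraries in the other. With the lane set as a term in the fit, only Il10 was still called in KO (log2 fold change 4.48, adjusted p = 0.0367), and the other 5 kept their direction with log2 fold changes of 1.70 to 6.21 and adjusted p-values of 0.138 to 0.257. WT libraries of both days lay in both sets. In each set, the WT day 14 libraries stood above the WT day 7 libraries for 9 of 10 genes, all but Il9. That set 1 day 14 library against 3 at day 7 in one set, and 2 against 1 in the other. So few libraries often separate without a change, and the share of all tested genes that did so was not counted. The number therefore only describes these genes.

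**Figure D2:**
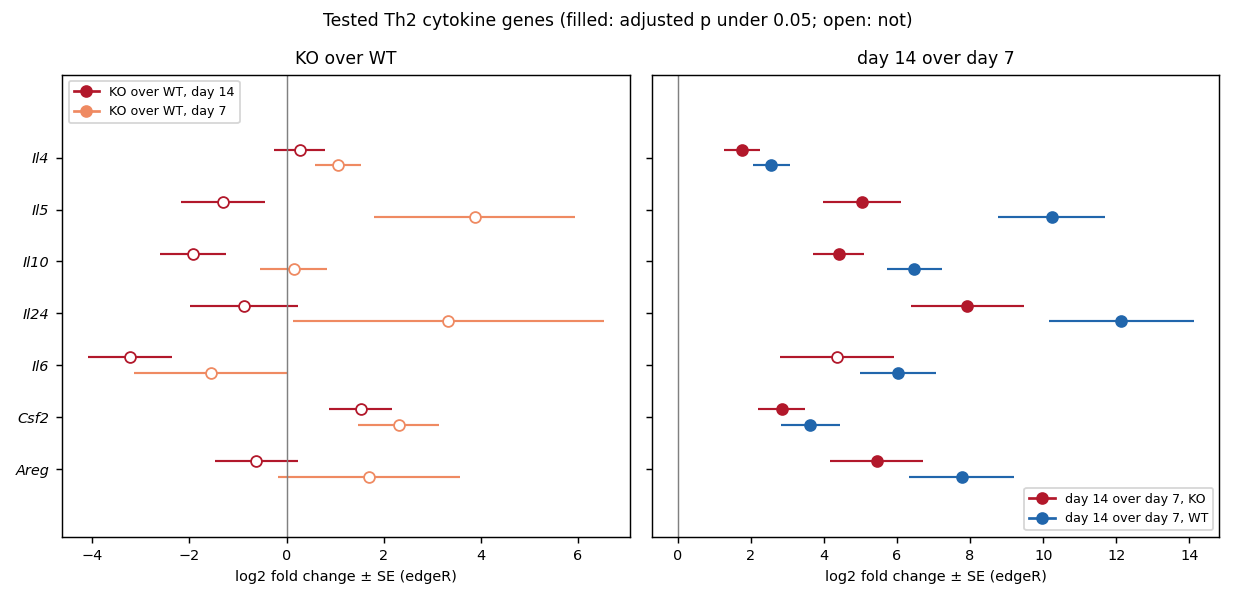
Log2 fold changes with standard errors (edgeR) of the 7 tested genes, KO over WT at day 14 and day 7 on the left, day 14 over day 7 in KO and WT on the right. Filled points have an adjusted p under 0.05: none on the left, and all on the right except Il6 in KO. Values against a group with 0 reads (such as Il5, Il24 and Areg in WT and Il6 in KO over time) depend on the model's prior count and are no bound.

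The second question was whether the knockout changed these genes. At day 14 none of the 7 tested genes was called between KO and WT, where 1.42% of all tested genes were, and at day 7 none was called, where 0.0949% were. At an unadjusted p under 0.05 there were 3 at day 14 (Il10, Il6 and Csf2) and 2 at day 7 (Il4 and Csf2), against 21.7% and 23.4% of all tested genes. DESeq2 called none of them in either comparison, and gave Il6 and Areg no adjusted p at day 7. Counting all 10 genes, KO libraries at day 14 lay wholly above WT for 1 gene, Csf2 (9.71% of all tested genes), and wholly below WT for 1 gene, Il6 (5.25%). At day 7 libraries of KO and WT overlapped for all 10 genes (9.27% of all tested genes lay wholly above and 12.9% wholly below).

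Il10 averaged 10.2 ± 5.19 CPM in KO at day 14 and 39.0 ± 35.6 CPM in WT (SD, n = 3 each). The lowest WT library, at 7.70 CPM, lay inside the KO range of 5.97 to 16.0 CPM. The log2 fold change of KO over WT was -1.93 ± 0.68 (adjusted p = 0.138), and -0.94 (adjusted p = 0.276) without WT library 3. At day 7 the means were 0.488 ± 0.30 CPM in KO and 0.432 ± 0.185 CPM in WT (SD, n = 4 each), with a log2 fold change of 0.14 ± 0.70 (adjusted p = 0.922) that was -0.37 with the GC and length trend of each library removed.

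Il6 had 0 to 0.151 CPM in KO at day 14, against 0.446 to 1.27 CPM in WT. No KO library reached the lowest WT library. The log2 fold change was -3.23 ± 0.86 with an adjusted p of 0.0789. Over the fits that left out 1 library the log2 fold change ran from -3.97 to -2.65 and the adjusted p from 0.0552 to 0.218. An alternative added with the data in view removed the trend of each library over GC content and coding length. There Il6 (-3.89, adjusted p = 0.0392) and Il10 (-2.36, adjusted p = 0.0276) were both called lower in KO.

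Csf2 had a higher mean in KO than in WT at both days. It averaged 1.34 ± 0.868 CPM in KO and 0.464 ± 0.131 CPM in WT at day 14 (SD, n = 3 each), with a log2 fold change of 1.53 ± 0.65 (adjusted p = 0.196). KO day 14 library 1, with 79 reads, was far above the other 2 KO libraries, and without it the log2 fold change was 0.86. At day 7 KO libraries held 4, 1, 6 and 8 reads, against 1, 1, 0 and 2 reads in WT, with a log2 fold change of 2.31 ± 0.84 (adjusted p = 0.155). With the GC and length trend removed, the values were 0.85 at day 14 (adjusted p = 0.407) and 1.75 at day 7 (adjusted p = 0.291). The summed reads differed 5.39-fold at day 7, with an exact 95% counting interval of 1.79 to 21.8 that covers counting error only.

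Il4 at day 14 averaged 9.70 ± 2.55 CPM in KO and 8.02 ± 6.91 CPM in WT (SD, n = 3 each), and the WT libraries spanned the whole KO range. Its log2 fold change of 0.27 ± 0.52 (adjusted p = 0.798) became -0.23 with the GC and length trend removed, and 1.25 without WT library 3 (adjusted p = 0.0559). At day 7 Il4 averaged 2.83 ± 1.15 CPM in KO and 1.36 ± 0.359 CPM in WT (SD, n = 4 each). The lowest KO library, at 1.46 CPM, lay among the WT libraries and the other 3 lay above them, and the log2 fold change was 1.06 ± 0.48 (adjusted p = 0.20), and 0.46 with the GC and length trend removed (adjusted p = 0.503).

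The other genes gave no separation at day 14. The log2 fold change of KO over WT was -1.31 ± 0.86 for Il5 (adjusted p = 0.394), -0.87 ± 1.11 for Il24 (adjusted p = 0.682) and -0.62 ± 0.85 for Areg (adjusted p = 0.710). Without WT day 14 library 3 these became -0.51, 1.18 and 0.77, so the direction of Il24 and Areg turned with that library. Il3 averaged 0.199 ± 0.105 CPM in KO and 0.216 ± 0.134 CPM in WT (SD, n = 3 each), with an exact permutation p of 0.800, where 3 against 3 libraries cannot go below 0.100. At day 7, reads of Il5 were seen in 3 of 4 KO libraries, 6 in all, against 0 in WT, and reads of Il24 in 2 of 4 KO libraries, 4 in all, against 0 in WT. Single reads of Il3 and Areg in KO and of Il6 in WT were the only others at day 7 beside those of Il4, Il10 and Csf2. The interaction of genotype and day was called for 0 of the 7 genes (0.0863% of all tested genes), with 2 at an unadjusted p under 0.05, Il5 and Il10 (7.97% of all tested genes), and none by DESeq2. Every one of the 7 fitted interaction values was below 0, from -5.19 for Il5 to -0.78 for Csf2, with adjusted p-values of 0.609 to 1.00, and that of Il4 turned to 0.19 without WT day 14 library 3. The values of Il5, Il24, Areg and Il6 involve a day 7 group with 0 reads and depend on the model's prior count. Their SE reached 3.47 for Il24 and 4.55 for Il6, so the shared sign shows no common effect.

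Levels between genes were compared on the deposited RPKM, which is per coding length. It rests on larger library totals than the CPM: the summed counts were 38.95% to 44.89% of the totals it implies. RPKM and CPM values are thus not on one scale. On TMM-scaled totals Il4 in KO at day 14 was 22.9 CPM per kilobase, and in each group all 10 genes kept their places. In KO at day 14 Il4 came first at 10.1 ± 1.97 RPKM, then Il10 at 8.27 ± 3.61, Il24 at 6.57 ± 6.99, Il5 at 2.19 ± 1.53 and Csf2 at 1.42 ± 0.990 RPKM (SD, n = 3). Areg at 0.341 RPKM, Il3 at 0.175, Il13 at 0.0733, Il6 at 0.0448 and Il9 at 0.0115 RPKM followed. The only neighbours in that order whose libraries did not overlap were Csf2 and Areg. In WT at day 14 Il10 came first at 32.6 ± 30.8 RPKM, then Il24 at 12.9 ± 17.4, Il4 at 8.50 ± 7.65 and Il5 at 5.62 ± 4.88 RPKM (SD, n = 3), and the other 6 lay between 0.136 and 0.549 RPKM on average. All neighbours in the WT order overlapped. Without WT library 3 the order was Il10 at 15.7 RPKM, Il4 at 4.11, Il5 at 3.09 and Il24 at 2.94 RPKM (means of 2 libraries). At day 7 Il4 led in both genotypes, with 2.66 ± 1.00 RPKM in KO and 1.31 ± 0.325 RPKM in WT (SD, n = 4 each), wholly above Il10 in each. Of all reads of the 10 genes, Il4 made up 28.0% in KO and 10.8% in WT at day 14, and 79.1% in KO and 73.5% in WT at day 7. Il10 made up 29.6% in KO and 52.8% in WT at day 14. Without WT library 3 the WT shares at day 14 were 12.2% for Il4 and 60.1% for Il10.

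**Figure D3:**
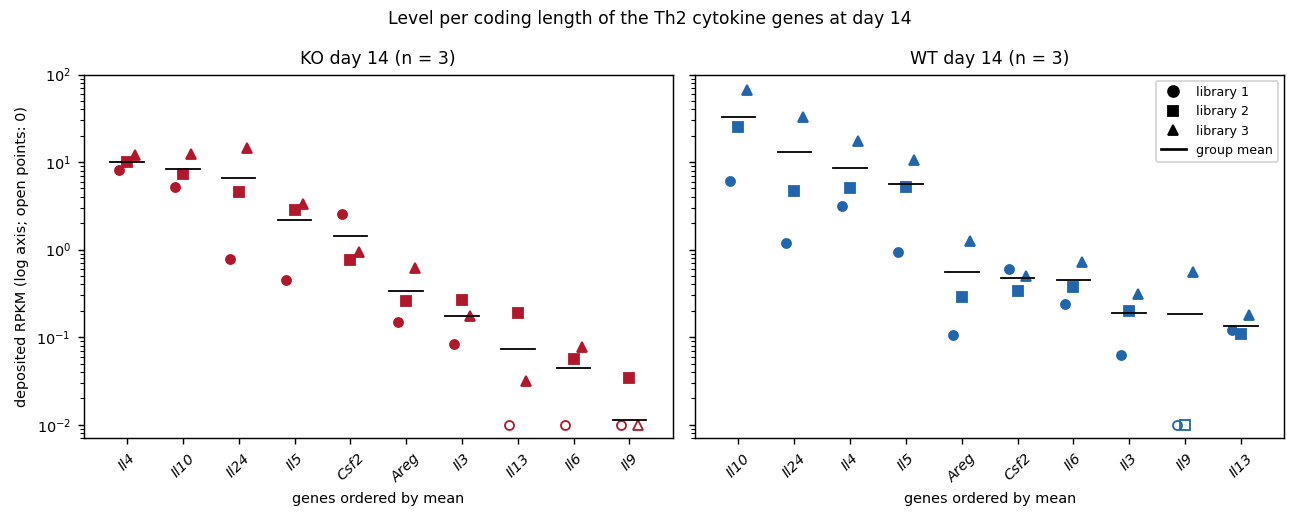
Deposited RPKM (log axis) of the 10 genes at day 14, KO left and WT right, each ordered by its group mean (black bars). Points are single libraries and open points are libraries with 0. Il4 leads in KO and Il10 in WT, and the points of neighbouring genes overlap, except Csf2 and Areg in KO.

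At day 14 the summed level of the 10 genes was 17.4, 29.1 and 57.2 CPM in KO libraries 1, 2 and 3, against 15.0, 50.7 and 155 CPM in WT libraries 1, 2 and 3. KO library 1 was the lowest for 8 of 10 genes and the highest for Csf2. In WT, library 1 was the lowest for 7 genes and it too was the highest for Csf2. At day 7 the sums were 2.19, 3.04, 3.85 and 5.45 CPM in KO and 1.17, 1.86, 2.27 and 2.05 CPM in WT. KO day 7 library 4 was the highest for Il4, Il5, Il10, Csf2 and Areg, and it also had the most Egr1, an early gene of receptor signalling, at 183 CPM against 36.6 to 39.6 CPM in the other 3. Fos, another early gene, stood at 3.87, 50.4 and 93.3 CPM in KO at day 14, against 2.31, 2.30 and 41.4 CPM in WT. Its part in the cytokine values was not tested. In these bulk libraries, fewer cells making a cytokine and less of its RNA per cell cannot be told apart.

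Genes side by side on chromosome 11 stood at different levels. Il4 (chr11:53602982-53618669), Il13 (chr11:53631324-53634702) and Il5 (chr11:53720794-53725106, all GRCm38) lie within 122 kb, with Rad50, a DNA repair gene whose 3′ end holds the control region of the cluster, between Il13 and Il5. Summed over the group, KO at day 14 had 943 reads of Il4, 6 of Il13 and 196 of Il5, against 749, 11 and 474 in WT. Rad50 stood at 28.7 to 43.1 CPM in KO and 18.8 to 90.7 CPM in WT at day 14, and was not called in any comparison. Csf2 (chr11:54247271-54249667) and Il3 (chr11:54265303-54267277) lie 522 kb beyond Il5.

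On chromosome 1, Il24 (chr1:130882074-130887454) and Il10 (chr1:131019845-131024974) are ends of an IL-10 family cluster with Il20 and Il19 between them, and Fcmr, which encodes an Fc receptor for IgM, beside Il24. Fcmr stood at 1.18, 6.99 and 15.6 CPM in KO at day 14, against 0.0676 to 0.387 CPM in KO at day 7. It stood at 2.71, 5.78 and 13.9 CPM in WT at day 14, against 0 to 0.319 CPM in WT at day 7. It rose in KO (log2 fold change 5.18 ± 0.97, adjusted p = 0.00246) and in WT (5.97 ± 1.02, adjusted p = 0.000964). Il19 rose too, in KO (2.88 ± 0.88, adjusted p = 0.0381) and in WT (5.42 ± 1.12, adjusted p = 0.00333), with 50 reads over the KO day 14 libraries and 49 over the WT ones. Mapkapk2, further along on the side of Il10, rose in KO (1.10 ± 0.28, adjusted p = 0.0163) and in WT (1.05 ± 0.28, adjusted p = 0.0158). Acsl6, near Il3 on chromosome 11, rose in KO (4.24 ± 0.81, adjusted p = 0.00277) and in WT (3.97 ± 0.91, adjusted p = 0.00672). Il20, which lies between Il24 and Il19, had 2 reads in each genotype at day 14 and 0 at day 7. Whether the counting used strand is not stated in the labels, so reads of genes that overlap on opposite strands could not be told apart. By their coordinates Fcmr, Il24, Il20, Il19 and Il10 do not overlap one another.

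**Figure D4:**
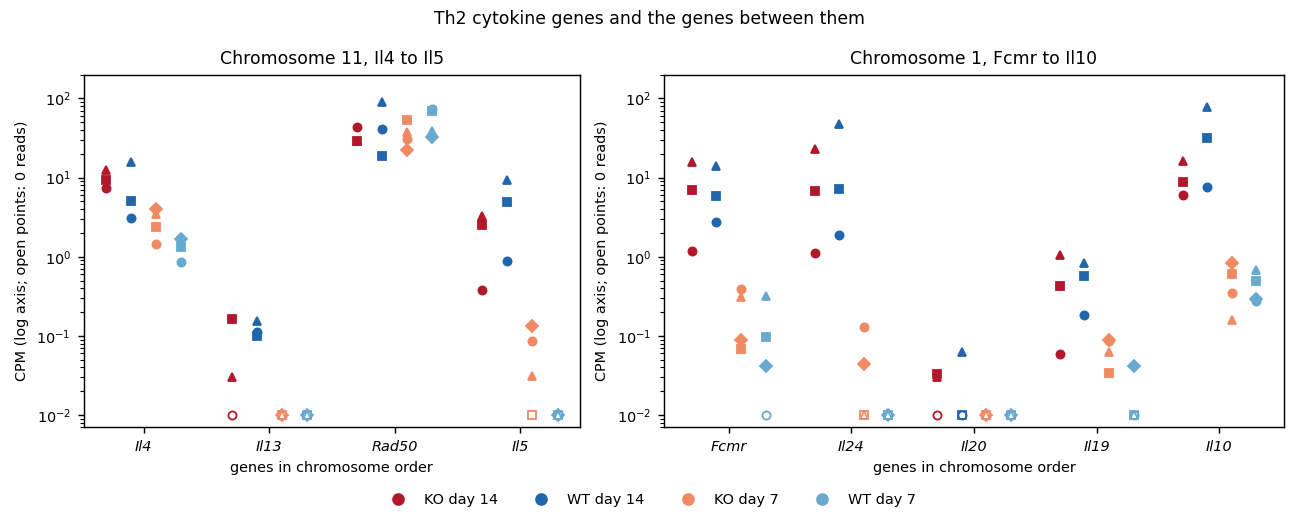
CPM (log axis) of the genes from Il4 to Il5 on chromosome 11 and from Fcmr to Il10 on chromosome 1, in chromosome order. Each point is 1 library, colours give the group with KO at day 14 leftmost and WT at day 7 rightmost within each gene, and open points are libraries with 0 reads. Il13 lies far below Il4 and Il5 while Rad50 lies between 18.8 and 90.7 CPM in the day 14 libraries, and Il20 is at or near 0 between Il24 and Il19.

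Receptors for these cytokines were measured in the same libraries. Of 18 listed genes 13 were tested. Over time 4 rose and 1 fell in KO, where 10.5% of all tested genes rose and 4.92% fell. In WT 6 rose and 1 fell, where 13.2% and 7.33% of all tested genes did. Since 0 of the 13 had a called interaction of genotype and day, these counts are not shown to differ. The KO days also differed in lane set. Il3ra, Il10ra, Egfr (the receptor of amphiregulin) and Csf2rb (the chain shared by the receptors for IL-3, IL-5 and GM-CSF) rose in both genotypes. Il20rb fell in KO and Il6ra fell in WT, and Csf2rb2 and Il4ra rose in WT. Il4ra, the receptor chain for both IL-4 and IL-13, was the one receptor gene called between KO and WT at day 14, at 1391, 3768 and 2031 CPM in KO against 6959, 7431 and 5362 CPM in WT (log2 fold change -1.46 ± 0.32, adjusted p = 0.0369). All KO libraries lay below all WT libraries. Of all tested genes, 0.578% were called lower in KO at day 14 and 5.25% lay wholly below WT. Il5ra had 0 reads in every library, and Il13ra1 had reads in 1 of the 14.

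Among 22 transcription factors known to act on Th2 cytokine genes, 21 were tested. Gata3, the master factor of Th2 cells, stood at 437 to 600 CPM in KO and 411 to 476 CPM in WT at day 14, and 484 to 568 CPM in KO and 453 to 604 CPM in WT at day 7, and was called in no comparison. At day 14, 3 factors were lower in KO and 0 higher, where 0.578% of all tested genes were lower and 0.845% higher. With the compared groups fitted alone, 0 genes of the whole table were called between KO and WT at day 14. Nfil3, a factor that acts on Il10 and Il13 in mouse T cells, had 288, 454 and 603 CPM in KO against 1290, 1635 and 1379 CPM in WT (log2 fold change -1.68 ± 0.26, adjusted p = 0.00823). Stat5a (-1.27 ± 0.28, adjusted p = 0.0398) and Stat5b (-0.99 ± 0.23, adjusted p = 0.0447), which carry signals of IL-2, were the others. Over time 1, Rbpj, rose and 1, Stat5b, fell in KO (10.5% of all tested genes rose and 4.92% fell), and 10 rose and 1, Ikzf1, fell in WT (13.2% and 7.33%). The interaction of genotype and day was called for 0 of the 21, so these counts are not shown to differ. In KO the days also differ in lane set, and with that term 370 genes of the whole table were called over time, against 1792 without it. The 10 in WT were Maf, Irf4, Rbpj, Nfil3, Batf, Prdm1, Pparg, Junb, Gfi1 and Stat3. Maf, which acts on Il4 and Il10, stood at 0.706, 1.5 and 4.05 CPM in WT at day 14 against 0.224 to 0.391 CPM in WT at day 7 (log2 fold change 2.80 ± 0.51, adjusted p = 0.00145).

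Cytokine genes of other helper T cell types were 20, of which 13 were tested. None was called between KO and WT (1.42% of all tested genes at day 14 and 0.0949% at day 7). Tnf, Lta and Fasl rose over time in both genotypes and Il16 fell in both. Il2 and Osm rose in KO, and Ebi3, Lif and Tnfsf10 rose in WT. None of the 13 had a called interaction of genotype and day. The defining cytokines of Th1 and Th17 cells were near absent: Ifng had at most 0.0418 CPM in any library, and Il17a and Il22 had 0 reads in all. Tnf stood at 3.04, 15.6 and 22.3 CPM in KO at day 14, against 1.60, 3.24 and 8.59 CPM in WT, with library 1 lowest in both.

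Other genes known from Th2 cells were tested in 9 of 10 cases. Of these, 8 rose and 1 fell over time in KO, where 10.5% of all tested genes rose and 4.92% fell. In WT 5 rose and 1 fell, where 13.2% and 7.33% of all tested genes did. The KO days also differed in lane set. Epas1, Ccr8, Ccr4, Crlf2 and Cysltr1 rose in both genotypes, and Gpr183 fell in both. Il1rl1 (the IL-33 receptor), Il17rb (the IL-25 receptor) and Hpgds (prostaglandin D synthesis) rose in KO. In WT their log2 fold changes were 1.78, 1.11 and 1.24, without a call. The interaction was called for 0 of the 9 genes, so a difference between genotypes over time is not shown. At day 14 Epas1 was lower in KO (log2 fold change -1.94 ± 0.44, adjusted p = 0.0447) and Gpr183 higher (1.52 ± 0.27, adjusted p = 0.0127). Of all tested genes, 0.578% were called lower and 0.845% higher there. Of 14 regulators of cytokine mRNA decay and translation, none was called between KO and WT, where 1.42% of all tested genes were at day 14 and 0.0949% at day 7. Zfp36, which binds AU-rich elements, fell over time in KO (-1.86 ± 0.31, adjusted p = 0.00111) and in WT (-1.20 ± 0.30, adjusted p = 0.0112). Zc3h12c rose in both genotypes, Arid5a rose and Tial1 fell in WT, and Zfp36l1 fell in KO. Of 16 early genes of receptor signalling, Myc and Jun rose and Dusp1, Dusp2 and Egr1 fell over time in KO, and Jun, Junb, Ier3 and Egr2 rose in WT. Neither the regulators nor the early genes held a called interaction of genotype and day.

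Markers of other cells that make some of these cytokines moved between the groups. The 15 mast cell and basophil markers summed to 23.8 to 135 CPM in KO and 4.54 to 10.4 CPM in WT at day 14, and to 54.6 to 89.0 CPM in KO and 36.6 to 72.1 CPM in WT at day 7. At day 14 Cpa3 (log2 fold change 3.80 ± 0.77, adjusted p = 0.0270) and Kit (6.63 ± 1.11, adjusted p = 0.0115) were higher in KO, 2 of the 6 tested. Of all tested genes, 0.845% were called higher in KO there. Hdc was not called (-0.36 ± 0.47, adjusted p = 0.696), and Tpsb2 had 0 reads in KO and 3 in WT. Of the 15 markers 11 had 0 reads in KO at day 14, against 7 in WT. Over time 4 of the 6 tested fell and 0 rose in WT (7.33% and 13.2% of all tested genes). In KO 2 fell and 1 rose (4.92% and 10.5%). Cpa3 was highest in KO day 14 library 1, at 120 CPM against 12.9 and 23.8 CPM in KO libraries 2 and 3, the library with the most Csf2 and the least of 8 other cytokine genes. Myeloid and dendritic cell markers summed to 381 to 525 CPM in KO and 312 to 456 CPM in WT at day 14, and to 184 to 464 CPM in KO and 93.4 to 169 CPM in WT at day 7. Cst3 was the most abundant of them, Mgl2 was higher in KO at day 14 (log2 fold change 2.45 ± 0.46, adjusted p = 0.0186) and at day 7 (2.28 ± 0.37, adjusted p = 0.0249), and Itgam, Itgax and Mpeg1 had 0 reads in all libraries. At day 14 Cd14 stood at 0.177 to 0.330 CPM in KO, all below the 1.23 to 1.84 CPM in WT (log2 fold change -2.51 ± 0.85, adjusted p = 0.126), and Lyz2 had 4 reads in KO against 17 in WT (-2.11 ± 1.72, adjusted p = 0.489). Cst3, Adgre1 and Cd68 were at 0.25, 0.54 and 0.36 there, without a call. At day 7 Cd14 (3.15 ± 0.92, adjusted p = 0.154) and Lyz2 (3.38 ± 1.30, adjusted p = 0.162) lay higher in KO, without a call. Over time 4 of the 6 tested myeloid markers rose and 1 fell in WT, and 2 rose and 1 fell in KO. The shares of all tested genes were 13.2% and 7.33% in WT and 10.5% and 4.92% in KO. The most abundant marker was Ikzf4 for Treg cells, Eomes for NK cells, Cd79b for B cells and Ccr3 for eosinophils. The sums were 26.4 to 152 CPM in KO and 34.7 to 158 CPM in WT at day 14 for Treg markers, and 4.89 to 8.48 CPM in KO and 7.10 to 9.20 CPM in WT at day 7. For NK markers they were 15.7 to 40.6 CPM in KO and 22.8 to 42.6 CPM in WT at day 14, and 8.78 to 14.4 CPM in KO and 8.40 to 10.6 CPM in WT at day 7. Over time Ikzf4 rose in KO (log2 fold change 4.14, adjusted p = 0.000350) and in WT (3.50, adjusted p = 0.000596), and Eomes rose in KO (4.05, adjusted p = 0.000112) and in WT (2.74, adjusted p = 0.000584). Klrd1, the only other NK marker tested, fell in KO (-2.405, adjusted p = 0.0412) and in WT (-2.887, adjusted p = 0.0179). B cell and eosinophil markers summed to at most 4.25 and 2.32 CPM in any library. Foxp3, the defining Treg factor, stayed at 0.495 to 1.90 CPM in all libraries. The part of such cells in the cytokine values was not tested.

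For each tested gene, the 3 genes with the most similar course over the 14 libraries were found among 8234 genes, by the root mean square difference of centred log2(CPM + 0.5). Il10 was closest to Ctsh (0.470), Ttc39c (0.485) and Gcnt2 (0.534), where the spread of Il10 itself about its mean was 2.22 on that scale. Il24 was closest to Penk (0.604), Tube1 (0.634) and Il10 (0.686), with a spread of 2.24. Penk was also near Il5 (0.427), beside Acat2 (0.415) and Emilin2 (0.444), with a spread of 1.46. Csf2 was closest to Fasl (0.323), Tnfsf11 (0.340) and Mrps6 (0.359), with a spread of 0.683. Il4 was closest to Mlkl, Prdx4 and Hsd17b7 (0.312 to 0.342, spread 1.09), Areg to Slc16a6, Tarbp2 and Scpep1 (0.316 to 0.325, spread 0.714) and Il6 to Marcks, Ppp3cc and Gsn (0.198 to 0.232, spread 0.560). Il6, Csf2 and Areg reached at most 1.27, 2.33 and 2.04 CPM, and the 0.5 added flattens their course on this scale. Marcks stood at 17.2 to 41.2 CPM in WT at day 14 against 8.11 to 12.7 CPM at day 7, while the fitted log2 fold change of Il6 there was 6.03. Penk, which encodes an opioid precursor, stood at 25.0 to 107 CPM in KO and 24.8 to 216 CPM in WT at day 14, against 5.70 to 10.8 CPM in KO and 5.31 to 6.26 CPM in WT at day 7. All 14 libraries share the same 4 groups, so these likenesses are descriptions.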

How the data were processed

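Paired-end RNA sequencing gave 14 libraries. The submitters' processing notes name GSNAP and the build GRCm38. For each library the authors deposited a read count, an RPKM value and a width (the coding length) for every gene, per the file headers. The sources used here do not name the counting tool, its strand setting or its annotation. Of 22598 Ensembl identifiers, 22534 had a symbol in GENCODE vM21.

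The counts were fitted in edgeR 4.0.16 (limma 3.58.1, R 4.3.3): filterByExpr by group (11591 genes kept, about 0.33 CPM in 3 libraries), TMM scaling, a robust quasi-likelihood model with a mean for each group (biological coefficient of variation 0.354), and Benjamini-Hochberg adjustment over all tested genes for each of 5 comparisons, called at an adjusted p under 0.05. The SE is the log2 fold change divided by the square root of the F statistic. Genes outside the test were compared by exact 2-sided permutation over libraries. A group at 0 was set at a floor of 3 counts over the group. The deposited RPKM served to order genes. Intervals were computed on reads summed over a group, so they cover counting error only and leave out the spread between libraries. Reads carry no molecular identifiers, so reads were counted and not molecules.

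Named were the 10 genes, called members of each context list or its 2 most abundant, the top gene of each marker list and the 3 most similar genes, with further genes of these lists named after their values were seen. The members and lists were chosen with earlier results of these data known. Same-numbered libraries were checked for pairing. Alternatives were other scalings and filters, the compared groups alone, DESeq2 1.42.0, a replicate block, a lane set term and leaving out each library. Removal of GC and coding length trends (splines with 5 degrees of freedom) and the lane set values side by side were chosen after seeing the data. The fits were tested on simulated counts. Motifs and seeds were matched by exact letters in promoters (RefSeq, GRCm38.p6) and in the longest 3′ UTR of each gene (GENCODE vM21).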

Additional observations from a re-analysis of the deposited data

Results flagged for a closer look

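In all, 3 values stood apart from the rest of their group, among 20 groups of 4 libraries that were looked at, each as 1 read in 1 library where the other 3 libraries had none. They were Il3 in KO day 7 library 2 (0.0338 CPM), Areg in KO day 7 library 4 (0.0443 CPM) and Il6 in WT day 7 library 3 (0.0319 CPM). A rule of this kind marks some groups by chance alone, and a single read sets each of these values.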

How the results depend on the processing

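RLE or no composition scaling, other count filters and DESeq2 changed no direction or call among the 7 tested genes, leaving aside Il6 and Areg at day 7, to which DESeq2 gave no adjusted p. DESeq2 called more genes of the whole table, 468 between KO and WT at day 7, 993 at day 14 and 163 in the interaction. The compared groups alone gave 0 calls at day 14, and no composition factor gave 248. With the lane set as a term, calls numbered 79 at day 14, 1 in the interaction and 370 over time in KO, of them 1 cytokine gene. Removing the GC and length trend gave 532 calls at day 14 (2 of them cytokine genes), 75 in the interaction, 3407 over time in KO (1377 higher and 2030 lower, against 1222 and 570) and 3840 in WT (1627 and 2213, against 1525 and 850). It moved the median of all genes over time to -0.16 in KO (0.02 without the removal) and -0.14 in WT (0.00), and turned Il10 at day 7 to -0.37 and Il4 at day 14 to -0.23. The cause was not tested.

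Leaving out single libraries gave 42 to 2640 calls at day 14, 1 to 380 in the interaction and 1061 to 2420 over time in KO, with 4 to 7 cytokine genes. The log2 fold change of KO over WT ran from -0.21 to 0.46 for Il10 at day 7. At day 14 it ran from -0.11 to 1.25 for Il4, -2.28 to 1.18 for Il24 and -1.46 to 0.77 for Areg. The interaction value of Il4 ran from -1.17 to 0.19. The extremes at 2640, 380 and 2420 calls, 1.25, 1.18, 0.77 and 0.19 were without WT day 14 library 3.

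Library numbers were not shown to pair libraries: deviations of same-numbered libraries correlated at -0.42 to 0.36. With the replicate number as a block, calls numbered 15 and 236 between KO and WT at day 7 and day 14, 7 in the interaction, and 1607 and 2221 over time in KO and WT, and no cytokine gene changed its call. Of the libraries compared, 2 of 8, 3 of 6, 1 of 6 and 2 of 6 correlated best with their own number. Depth limits Il13, Il3, Il9 and, at day 7, all but Il4 and Il10.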
